A study of Bos taurus with 14 samples.

Results

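The genes described are 10 that are typical of lipid-associated macrophages, the state of macrophages that forms around the receptor TREM2. They are TREM2 and its signalling partner TYROBP, the secreted proteins LGALS3 and SPP1, the membrane proteins GPNMB and CD9, the lipid genes FABP5 and LPL, and the lysosomal enzymes PLD4 and CTSD. They were taken by symbol from a table of 17469 genes, and all 10 were found, each under a single gene ID. The genes were chosen by a list of symbols drawn up with their measured levels in DCLI and CON calves (both defined below) already known. The differences between those groups are therefore given gene by gene as a description, with no p of their own.

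The samples are livers of 14 Holstein bull calves, with 1 poly(A)-selected RNA library per calf, taken after slaughter on day 90. The 7 control calves (CON) and the 7 supplemented calves (DCLI) all drank milk replacer at 1.75% of body weight, had starter from day 33, had the milk cut to 50% on day 82 and were weaned by day 89. Only DCLI calves had a supplement, dead Lactobacillus ingluviei CR37 cells at 1 g each day, which is a postbiotic, a preparation of killed microbes. Libraries whose title says treated were assigned to DCLI, the one supplemented group that the design names. Values are TPM, the abundance of transcripts as parts of a fixed library total, scaled for transcript length, so that levels can be compared between genes. The depth behind them is unknown. Pieces of whole liver were used, and in such samples fewer cells of a type and less RNA per cell cannot be told apart.

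TREM2 is a receptor on the surface of macrophages that binds lipids and apolipoproteins. It has no signalling tail of its own and passes its signal on through TYROBP, also called DAP12, an adaptor that TREM2 shares with other receptors of myeloid and NK cells. In mouse and human liver, macrophages with TREM2, SPP1, GPNMB, CD9 and FABP5 gather where fat or dead cells are taken up, and they differ from the resident macrophages of the liver, the Kupffer cells. Several of the 10 genes are also used by other liver cells. SPP1 is made by bile duct cells, and CTSD by nearly every cell with lysosomes.

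The order of the mean levels over all calves set the lysosomal protease CTSD first, at 208 TPM (SD 46.3, n = 14), and TYROBP next, at 68.3 TPM (SD 25.4). CTSD stood above TYROBP, and TYROBP above GPNMB, in 14 of 14 calves. GPNMB (mean 15.2 TPM, SD 14.2) and CD9 (15.0 TPM, SD 3.68) did not differ beyond their spread, GPNMB being the higher of the pair in 5 of 14 calves. LGALS3 had 10.8 TPM (SD 9.09), PLD4 7.08 TPM (SD 3.75), SPP1 5.70 TPM (SD 4.19) and LPL 5.13 TPM (SD 1.89). The order of PLD4, SPP1 and LPL was not stable, since PLD4 lay above SPP1 in 7 calves and SPP1 above LPL in 8. FABP5 (2.63 TPM, SD 1.67) and TREM2 (1.97 TPM, SD 1.63) were lowest, with FABP5 above TREM2 in 10 calves. In the whole set of 11905 genes that reached 1 TPM in at least 7 of the 14 libraries, the mean level of TREM2 stood at percentile 9.8 and that of CTSD at percentile 95.3. All 10 genes passed that filter. TREM2 did so through 6 CON and 4 DCLI libraries.

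TREM2 itself ran from 0.99 to 6.67 TPM in CON, with a median of 2.76 TPM, and from 0.51 to 1.70 TPM in DCLI, with a median of 1.00 TPM. Of the 7 control calves 6 lay above the highest DCLI calf, and only CON calf 7 reached into the range of the supplemented calves. CON calf 3 was the highest. Control calves averaged 2.93 TPM (SD 1.86, n = 7) and DCLI calves 1.02 TPM (SD 0.38, n = 7), a log2 fold change of -0.86 ± 0.23 (SE) on the scale of log2(TPM + 1). That scale understates the difference of a gene this low: with 0.1 in place of 1 the log2 fold change was -1.30, and with 5 it was -0.37. SE here and below is the limma value, in which the variance of each gene is drawn toward that of genes of similar level. TYROBP, the adaptor, ran from 53.9 to 131.5 TPM in CON (median 69.5) and from 35.6 to 74.8 TPM in DCLI (median 56.0). The groups overlapped widely, with 3 control calves above all DCLI calves and 4 within their range. Its log2 fold change was -0.45 ± 0.22 (SE, n = 7 each).

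**Figure D1:**
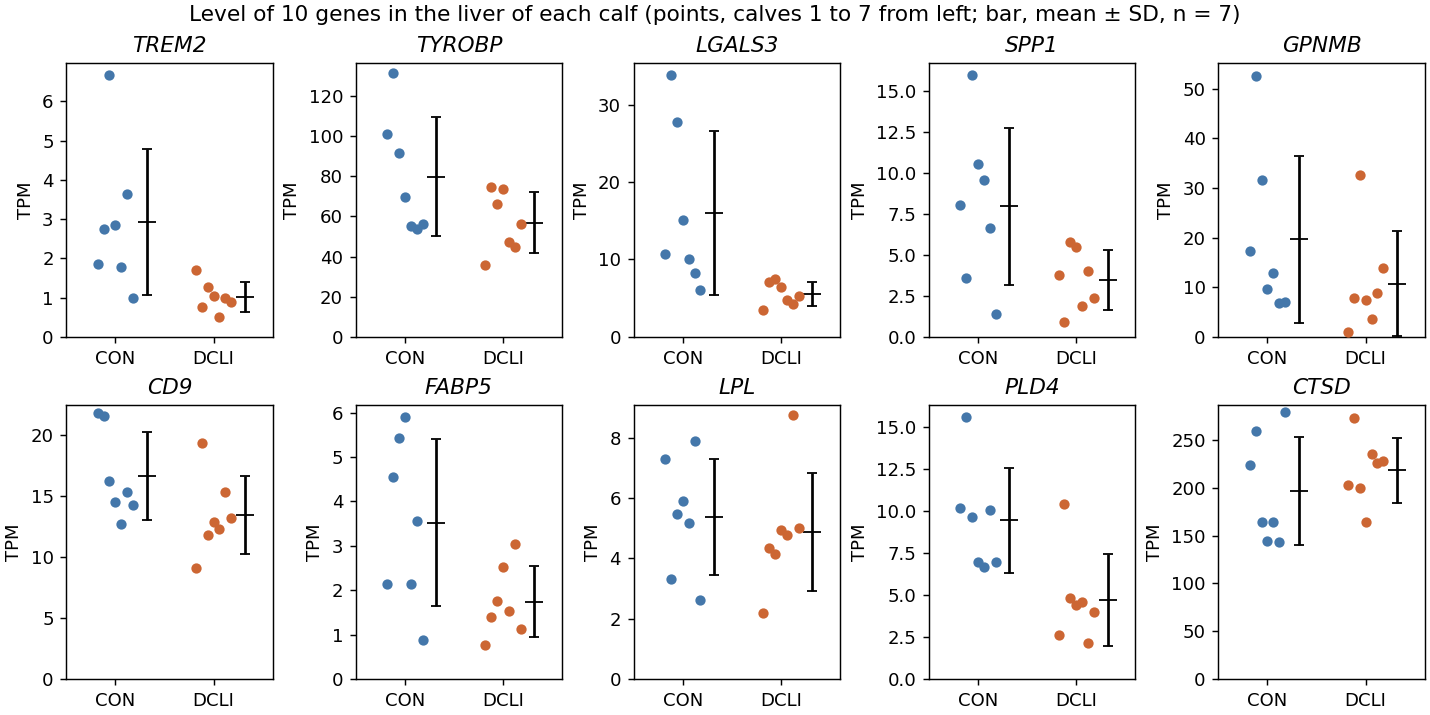
Level in TPM of each of the 10 genes (1 panel per gene, vertical axis from 0) in 7 CON and 7 DCLI calves, with points for calves and a bar for the mean ± SD. TREM2 lies above the DCLI maximum of 1.70 TPM in 6 of 7 CON calves, while LPL and CTSD show ranges that largely cover each other.

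Of the secreted proteins, LGALS3 encodes galectin-3, a lectin that binds galactosides and gathers at damaged lysosomes. It ran from 6.07 to 33.9 TPM in CON (median 10.7) and from 3.42 to 7.49 TPM in DCLI (median 5.28). CON calves 2 and 3, at 33.9 and 27.7 TPM, stood far above the others, and DCLI calves were close together. The mean in CON was 2.89 times that in DCLI, and the log2 fold change was -1.19 ± 0.31 (SE, n = 7 each). SPP1 encodes osteopontin, a ligand of integrins and CD44. It ran from 1.38 to 15.9 TPM in CON (median 8.04) and from 0.90 to 5.78 TPM in DCLI (median 3.78). CON calf 3 was again highest, but CON calf 2, the highest for LGALS3, had 3.56 TPM and lay inside the DCLI range. The log2 fold change of SPP1 was -0.91 ± 0.39 (SE).

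Among the membrane proteins, GPNMB was the most variable of all 10 genes. It is a lysosomal and cell surface glycoprotein of macrophages laden with lipid. It ran from 6.84 to 52.5 TPM in CON (median 12.9) and from 0.89 to 32.7 TPM in DCLI (median 7.77). The coefficient of variation was 85.3% in CON and 98.1% in DCLI, and DCLI calf 3, at 32.7 TPM, lay above 6 of the 7 control calves. The log2 fold change of -0.94 ± 0.55 (SE, n = 7 each) had the largest error of the 10, and it was -0.58 without DCLI calf 1. CD9, a tetraspanin found on many cell types, ran from 12.7 to 21.8 TPM in CON (median 15.3) and from 9.10 to 19.3 TPM in DCLI (median 12.9), with a log2 fold change of -0.29 ± 0.15 (SE).

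Of the lipid genes, FABP5, a carrier of fatty acids inside cells, ran from 0.88 to 5.91 TPM in CON (median 3.55) and from 0.76 to 3.05 TPM in DCLI (median 1.54). The 4 control calves above all DCLI calves were calves 2, 3, 4 and 6, and CON calf 7 lay near the bottom. The log2 fold change was -0.65 ± 0.27 (SE, n = 7 each). LPL, the secreted lipase that frees fatty acids from lipoproteins, ran from 2.63 to 7.89 TPM in CON (median 5.47) and from 2.18 to 8.76 TPM in DCLI (median 4.77). Here 0 control calves lay above the highest DCLI calf, and the log2 fold change was -0.12 ± 0.23 (SE), with the sign turned to 0.01 without DCLI calf 1.

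The lysosomal enzymes stood apart from each other. PLD4, an exonuclease of myeloid cells that degrades single-stranded nucleic acids, ran from 6.70 to 15.6 TPM in CON (median 9.64) and from 2.13 to 10.4 TPM in DCLI (median 4.43). Below the lowest control calf lay 6 of 7 DCLI calves, and DCLI calf 2 alone, at 10.4 TPM, reached into the control range. The log2 fold change was -0.94 ± 0.25 (SE, n = 7 each). CTSD, cathepsin D, ran from 143 to 279 TPM in CON (median 165) and from 164 to 273 TPM in DCLI (median 226). It was the one gene of the 10 with a higher mean in DCLI, with a log2 fold change of 0.18 ± 0.17 (SE).

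In all, 9 of the 10 genes had a lower mean of log2(TPM + 1) in DCLI, where 51.2% of the 11905 genes tested did, and the median log2 fold change was -0.75 against -0.01 over all genes. Since the genes were chosen with these differences known, nothing is read from that count. No gene of the 10 had every DCLI calf below every CON calf, which held for 1 of the 11905 genes (0.0084%). By limma, fitted on all genes with Benjamini-Hochberg adjustment, 0 of 11905 genes (0.0%) passed an adjusted p of 0.05, which is given as the background of the table. Before adjustment 1058 genes of the whole table had p under 0.05 by limma, and by an exact rank-sum test, adjusted in the same way, again 0 passed, with 821 before adjustment. Leaving out CON calf 7 gave 12 genes past the threshold.

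The extremes of the 10 genes were spread over 10 of the 14 calves, but many of them fell on CON calf 2 and DCLI calf 1. DCLI calf 1 had the lowest level of all 14 calves in 6 of the 10 genes (LGALS3, TYROBP, GPNMB, CD9, FABP5 and LPL). Its TREM2, at 1.70 TPM, was nevertheless the highest of the DCLI group. CON calf 2 had the highest level in 4 genes (LGALS3, TYROBP, PLD4 and GPNMB). CON calf 3 was highest for TREM2 and SPP1. The median log2 fold change of the 10 genes was -0.61 without CON calf 2 and -0.56 without DCLI calf 1.

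**Figure D2:**
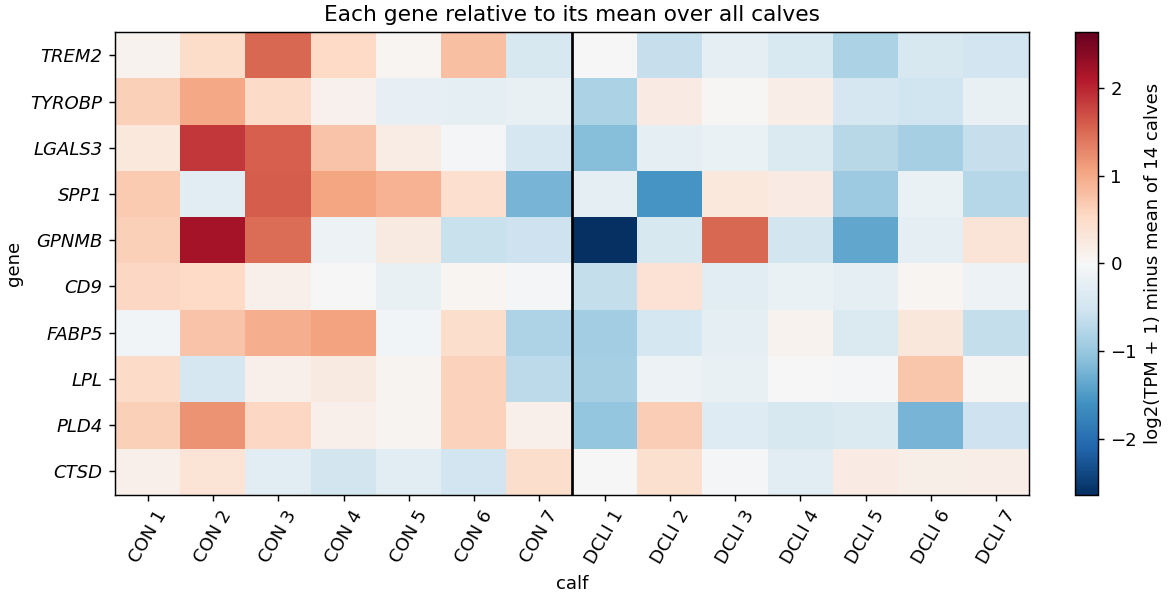
Heat map of log2(TPM + 1) minus the mean of all 14 calves, with genes in rows and calves in columns, a black line between CON and DCLI, and red above and blue below the mean. CON calf 2 is highest for 4 genes and DCLI calf 1 lowest for 6, while the row of CTSD differs from the others.

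The cell types of the liver that could bear on these levels were followed by 10 marker lists. Hepatocyte markers such as ALB were high in every library, with summed levels of 57470 to 106300 TPM in CON and 38800 to 117000 TPM in DCLI. Of the 13 resident macrophage markers, all were detected, 0 were at 0 in every library and 12 were lower on average in DCLI (median log2 fold change -0.34). Their summed level ran from 2088 to 8841 TPM in CON and from 1876 to 5357 TPM in DCLI, and CON calf 2 held the maximum, with 5886 TPM in the next control. Of the 13 T and NK cell markers, all were detected and 13 were lower on average in DCLI (median -0.50), with summed levels of 45.0 to 446 TPM in CON and 36.4 to 133 TPM in DCLI. The value of 446 TPM was again that of CON calf 2, and the next control had 148 TPM. Without that calf the medians of the macrophage and T and NK lists were -0.15 and -0.21. Other lists moved with the 10 genes as well. Of 5 cholangiocyte markers that passed the filter 4 were lower in DCLI, with a median log2 fold change of -0.43 (-0.49 without CON calf 2). Among these 5, CLDN4 had a log2 fold change of -1.07 and KRT19 of -0.55, while EPCAM had 0.45. All 8 markers of that list, filtered or not, summed to 14.7 to 81.5 TPM in CON and 16.8 to 51.2 TPM in DCLI. The part of bile duct cells in the SPP1 values was not tested. Of 9 monocyte markers that passed the filter 9 were lower in DCLI (median -0.27, and -0.19 without CON calf 2). All 10 markers of that list summed to 170 to 420 TPM in CON and 124 to 339 TPM in DCLI. The 2 neutrophil markers that passed the filter were lower as well (median -0.74). The 6 neutrophil markers found in the table, 4 of them below the filter, summed to 3.49 to 24.8 TPM in CON and 1.55 to 31.7 TPM in DCLI. For B and plasma cells 5 of 6 markers were lower (median -0.16, but 0.09 without CON calf 2), for stellate cells 9 of 11 (-0.10), for endothelial cells 4 of 8, for adipocytes 1 of 3 and for hepatocytes 3 of 8. In these lists 0 genes passed the adjusted threshold by limma, against 0.0% of all genes.

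The group differences were recomputed with the mean of a marker list as a covariate. TREM2 was as far apart with the resident macrophage markers in the fit (log2 fold change -0.90) as without them (-0.86), and it was -0.89 with the T and NK cell markers. SPP1 was likewise -1.02 and -1.05, and FABP5 -0.59 and -0.55. TYROBP moved from -0.45 to -0.25 with the macrophage markers and to -0.20 with the T and NK cell markers. GPNMB moved from -0.94 to -0.61 and -0.54, CD9 from -0.29 to -0.18 and -0.15. LGALS3 moved from -1.19 to -0.98 and -0.90, and PLD4 from -0.94 to -0.76 and -0.70. No test was made of these values, and the part of either cell type in the remaining differences was not tested.

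**Figure D3:**
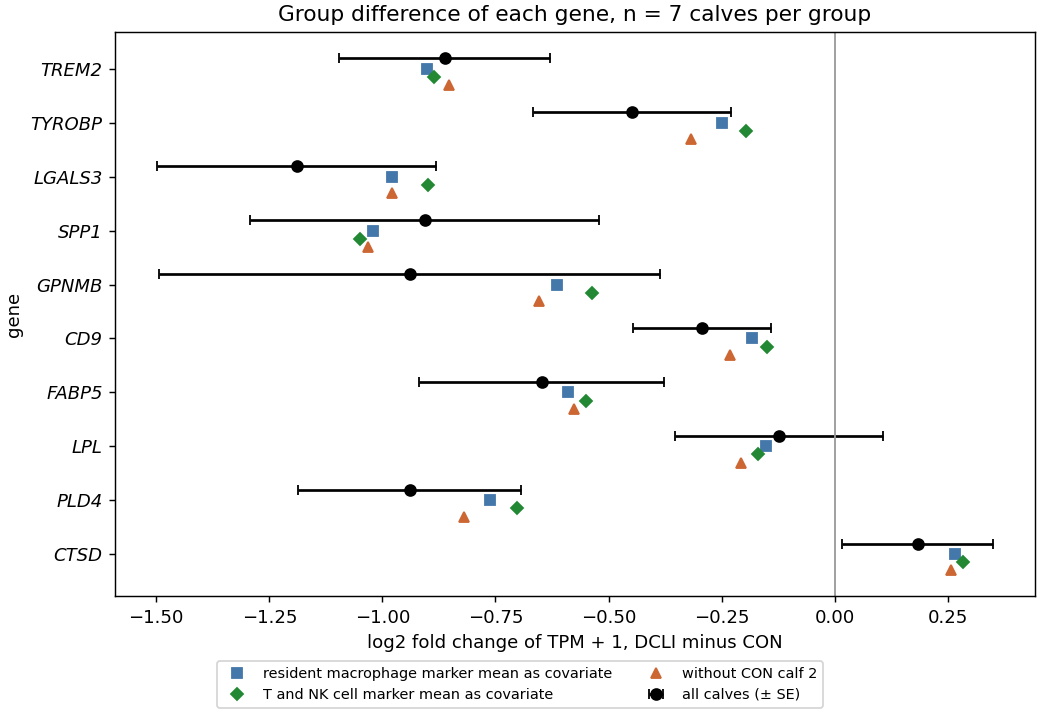
Log2 fold change of TPM + 1, DCLI minus CON, of each gene (n = 7 calves per group), with circles and SE bars for all calves, and symbols for fits with a marker list mean as covariate or without CON calf 2. TREM2 and SPP1 stay at or below -0.85 in all 4 fits, while TYROBP lies between -0.45 and -0.20.

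Variation among calves of the same group was not used in choosing the genes, and it was tested. Group means were removed from log2(TPM + 1), and each gene was tested for association with TREM2 by limma with group and TREM2 as terms. Of 11904 genes, 0 passed an adjusted p of 0.05 in either direction (0.0%), the lowest adjusted p being 0.966, and 466 had an unadjusted p under 0.05. None of the other 9 genes was therefore tied to TREM2 by that test. In rank, SPP1 (r = 0.67) stood at place 8 of 11904 by its correlation with TREM2, FABP5 (r = 0.60) at place 23 and LGALS3 (r = 0.51) at place 90. Spearman's rho was 0.53, 0.52 and 0.34, and the permutation p of r was 0.0235, 0.0575 and 0.157 before any adjustment, among 45 pairs of the 10 genes that were computed. Those values rested on the 2 calves farthest from the TREM2 median after centring, CON calf 3 at the top and CON calf 7 at the bottom. Without both, r was 0.26 for SPP1, 0.23 for FABP5 and -0.03 for LGALS3. Without CON calf 7 alone it was 0.48, 0.39 and 0.33, and without CON calf 3 alone 0.56, 0.53 and 0.29. Within CON calves alone r with TREM2 was 0.69 for SPP1, 0.83 for FABP5 and 0.65 for LGALS3. Within DCLI calves it was 0.64, -0.23 and -0.285 (n = 7 each).

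TYROBP, although the partner of TREM2, had r = 0.13 with it (rho = -0.03, permutation p = 0.704). PLD4 had r = 0.03, CD9 -0.11, LPL 0.14 and GPNMB 0.20. CTSD went the other way, with r = -0.56 (rho = -0.61, permutation p of r = 0.0885) and -0.42 without CON calves 3 and 7. Without that pair of calves r was -0.23 for TYROBP, -0.18 for PLD4 and GPNMB, -0.35 for CD9 and -0.26 for LPL. The sign differed between the groups (n = 7 each). Among CON calves alone r was 0.30 for TYROBP, 0.36 for PLD4, 0.11 for CD9 and 0.43 for LPL and GPNMB. Among DCLI calves alone it was -0.33 for TYROBP, -0.47 for PLD4, -0.60 for CD9, -0.51 for LPL and -0.15 for GPNMB. Leaving out DCLI calf 1 gave 0.30 for TYROBP, 0.14 for PLD4, 0.05 for CD9, 0.36 for LPL and 0.46 for GPNMB. TREM2 is measured at a level of 0.51 to 6.67 TPM against 35.6 to 131.5 TPM for TYROBP. The part of measurement noise in these values was not tested. With the resident macrophage markers as a further covariate, r with TREM2 was 0.85 for LGALS3, 0.67 for TYROBP and 0.66 for SPP1 and FABP5. In that fit it was 0.36 for GPNMB, 0.21 for PLD4, 0.12 for LPL, 0.03 for CD9 and -0.56 for CTSD. Again 0 genes passed (lowest adjusted p = 0.845 by limma). The fit with this covariate was not repeated without CON calves 3 and 7.

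**Figure D4:**
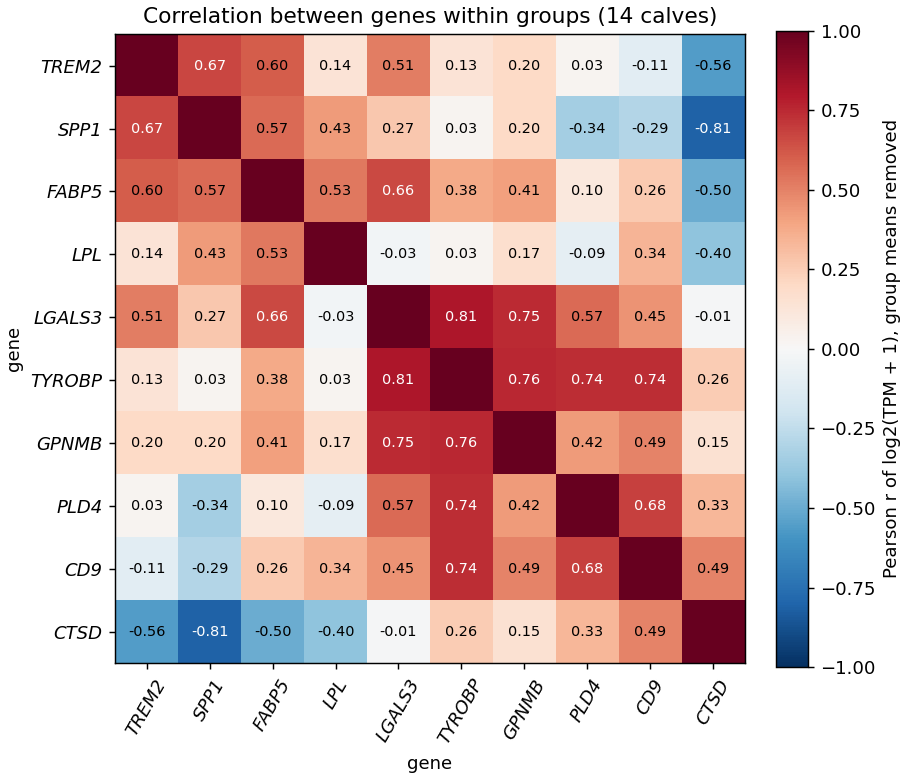
Pearson r of log2(TPM + 1) with group means removed, over 14 calves, for all pairs of the 10 genes, with red for positive and blue for negative values. LGALS3, TYROBP, GPNMB, PLD4 and CD9 are positive with each other (0.42 to 0.81), and TREM2, SPP1 and FABP5 likewise (0.57 to 0.67). These sets are not separate. Across them r runs from -0.34 (SPP1 with PLD4) to 0.66 (LGALS3 with FABP5), and LGALS3 has 0.51 with TREM2. CTSD is negative with SPP1 (-0.81).

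Taking TYROBP as the reference gave another picture. It was positively associated with 2867 of 11904 genes within groups (24.1%) and negatively with 36 (0.302%) at an adjusted p of 0.05 by limma. Of the other 9 genes 4 passed, all positive: LGALS3 (r = 0.81, rho = 0.80, adjusted p = 0.00274 by limma), GPNMB (r = 0.76, rho = 0.71, adjusted p = 0.00637), PLD4 (r = 0.74, rho = 0.73, adjusted p = 0.0104) and CD9 (r = 0.74, rho = 0.76, adjusted p = 0.0170). The permutation p of r was 0.00114, 0.00226, 0.0017 and 0.00399. Without CON calf 2 and DCLI calf 1, which lay farthest from the TYROBP median, r was 0.68, 0.54, 0.59 and 0.55. TREM2, SPP1, FABP5, LPL and CTSD did not pass. The 4 of 9 are to be read against the 24.1% of all genes that did the same. Without CON calf 2 the fit called 1793 genes positive (15.2%), and LGALS3 and GPNMB passed while PLD4 and CD9 did not. CD9 was also lost without DCLI calf 1.

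The other genes were taken as the reference in the same way. With PLD4 as the reference, limma called 1275 genes positive (10.7%) and 14 negative (0.118%), among them TYROBP of the 10 genes (adjusted p = 0.0275). With CD9 it called 2017 positive (16.9%) and 39 negative (0.328%), among them TYROBP and PLD4 (adjusted p = 0.0228 and 0.0344). With LGALS3 it called 29 positive (0.244%), none of them among the 10, TYROBP having an adjusted p of 0.0532. With CTSD it called 2 positive (0.0168%) and 3 negative (0.0252%), and with SPP1, GPNMB, FABP5 and LPL 0 either way (0.0%), with 1018, 2181, 971 and 614 genes before adjustment. These counts leaned on single calves. Without CON calf 2 the positive calls were 2 with PLD4 (0.0169%), 334 with CD9 (2.82%, and 8 negative, 0.0676%) and 0 with LGALS3 (0.0%, 786 before adjustment), and the negative calls were 18 with TYROBP (0.152%) and 1 with CTSD (0.00845%). None of the 10 genes was called with PLD4, CD9 or LGALS3 in those fits. Without DCLI calf 2 the count with CD9 was 0, without CON calf 3 that with LGALS3 was 999, with TYROBP and GPNMB among them, and without CON calf 7 that with CTSD was 974 positive and 33 negative, with SPP1 among the negative.

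The strongest negative pair was SPP1 and CTSD, with r = -0.81 (rho = -0.74, permutation p of r = 0.00077). CTSD stood at place 10 from the most negative of 11904 genes by its r with SPP1. The relation had r = -0.78 within CON and -0.88 within DCLI (n = 7 each), and it was -0.66 without CON calf 7 and DCLI calf 2, which lay farthest from the SPP1 median. With CTSD as the reference the adjusted p of SPP1 was 0.112 by limma over all calves, and SPP1 passed when CON calf 7 was left out. With SPP1 as the reference CTSD was not called (adjusted p = 0.582 by limma), as was the case for all 11904 genes (0.0%), with 1018 at an unadjusted p under 0.05.

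**Figure D5:**
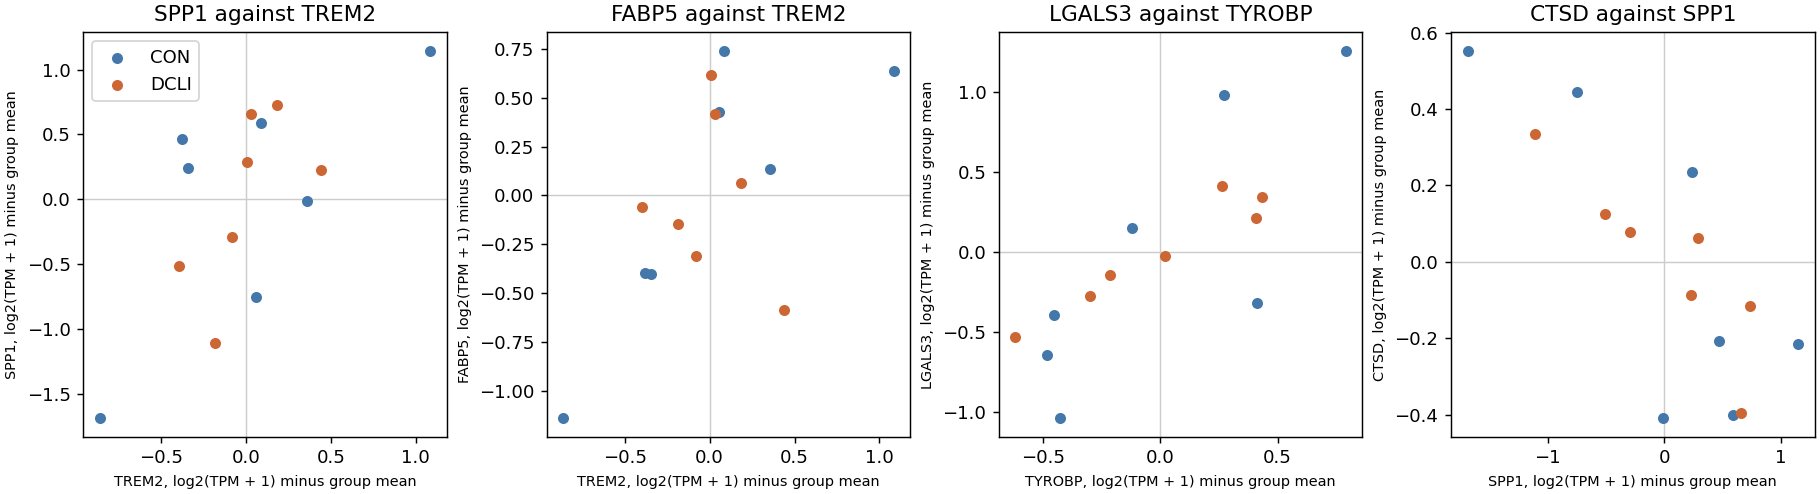
Values of 4 gene pairs in each calf as log2(TPM + 1) minus the group mean, with CON in blue and DCLI in orange. SPP1 and FABP5 are plotted against TREM2 (r = 0.67 and 0.60, with CON calves 3 and 7 at the right and left ends), LGALS3 against TYROBP (r = 0.81) and CTSD against SPP1 (r = -0.81).

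Among calves of the same group TYROBP followed the markers of resident macrophages, of T and NK cells and of B and plasma cells, and passed with no other list. Its r with the mean of the resident macrophage markers was 0.90 (rho = 0.91, permutation p = 4e-05, adjusted p = 0.002 over the 100 relations between the 10 genes and 10 marker lists). With the T and NK cell markers it was 0.87 (adjusted p = 0.002) and with the B and plasma cell markers 0.80 (adjusted p = 0.0155). With the monocyte markers it was 0.46 and with the neutrophil markers 0.04 (adjusted p = 0.333 and 0.974). Within CON and DCLI alone r with the macrophage markers was 0.92 and 0.89, and it was 0.82 without CON calf 2 and DCLI calf 1. By limma, all 13 of 13 macrophage markers passed in the fit on TYROBP (8 of 13 without CON calf 2), where 24.1% of all genes did (15.2%). The counts were 12 of 13 for T and NK cell markers (10 of 13 without CON calf 2) and 0 of 8 for hepatocyte markers. For B and plasma cell markers 4 of 6 passed, but only 1 of 6 without CON calf 2. Positive calls in the other lists were 4 of 9 for monocytes, 1 of 8 for endothelial cells and 1 of 11 for stellate cells. They were 0 of 5 for cholangiocytes, 0 of 3 for adipocytes and 0 of 2 for neutrophils. PLD4 and CD9 also passed with the macrophage list (r = 0.72 and 0.76, adjusted p = 0.0243 for both) and with the T and NK list (r = 0.73 and 0.76, adjusted p = 0.0204 and 0.0218). Without CON calf 2 their r was 0.64 and 0.72 with the macrophage list, and 0.69 and 0.78 with the T and NK list. By limma without that calf, 0 of 13 macrophage markers passed with PLD4 and 1 of 13 with CD9. Of all genes 0.0169% and 2.82% did. Without DCLI calf 2, 0 of 13 passed with CD9, as was the case for all genes. For TREM2 the r with the macrophage list was -0.16 and with the T and NK list -0.07 (permutation p = 0.659 and 0.824), and r was below 0 for 13 of 13 macrophage markers. Of all genes only 29.3% had r above 0 with TREM2, so this lean is shared by most of the table. For SPP1 the r with those lists was -0.29 and -0.27.

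Other genes of the pathway were taken from 4 lists with 76 genes past the filter. Of these 55 had a lower mean in DCLI and 0 passed the adjusted threshold by limma (0.0% of all genes). Of 29 other genes of lipid handling and lysosomes in such macrophages 24 were lower in DCLI, with a median log2 fold change of -0.21 (-0.12 without CON calf 2). LGALS1, galectin-1, averaged 86.6 TPM in control calves (SD 26.1) against 51.2 TPM in supplemented calves (SD 13.4, n = 7 each), a log2 fold change of -0.73 ± 0.21 (SE). CLEC7A, the beta-glucan receptor dectin-1, had 8.08 and 4.24 TPM, and CD68, a lysosomal protein of macrophages, 105 and 63.1 TPM. FABP4, a relative of FABP5, had 2.54 and 1.02 TPM, with 0 TPM listed in at least 1 DCLI calf. CTSZ, a lysosomal protease, had 525 and 541 TPM and GRN, progranulin, 165 and 175 TPM. In the fit on TREM2, 0 of the 29 passed (0.0% of all genes) and 15 had r above 0. In the fit on TYROBP, 17 of 29 were called positive against 24.1% of all genes, and without CON calf 2 10 of 29 against 15.2%.

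Of 11 signalling and shedding genes downstream or beside TREM2, 9 were lower in DCLI, with a median log2 fold change of -0.25 that became 0.01 without CON calf 2. LCP2, an adaptor of immune cells, had 17.1 and 10.6 TPM and INPP5D, the phosphatase SHIP1, 7.87 and 5.90 TPM. PLCG2, the phospholipase that acts after TREM2 and SYK, had 5.54 and 5.96 TPM. ADAM10 and ADAM17, the proteases that shed TREM2 from the cell, had 7.08 and 6.53 TPM and 6.86 and 6.76 TPM. With TYROBP 11 of 11 were called positive against 24.1% of all genes, and without CON calf 2 10 of 11 against 15.2%. With TREM2 0 were called (0.0% of all genes). Of 12 transcription factors of myeloid and lysosomal genes 11 were lower in DCLI, though by little (median -0.10, and -0.04 without CON calf 2). MITF, which drives lysosomal genes and GPNMB, had 5.73 TPM (SD 0.94) and 5.01 TPM (SD 0.54), and PPARG, a receptor for fatty acids that drives lipid uptake, had 2.10 and 1.45 TPM. IRF8, a factor of the macrophage lineage, had 30.6 and 24.1 TPM. Of the 12 factors 8 were called positive with TYROBP against 24.1% of all genes, and 6 without CON calf 2 against 15.2%.

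Receptors, partners and relatives of the proteins were divided, with 11 of 24 lower in DCLI and a median log2 fold change of 0.05. CD44, a receptor for osteopontin, averaged 23.7 TPM in control calves (SD 12.9) against 15.0 TPM in supplemented calves (SD 5.12). ITGB3, the beta chain of an integrin that binds osteopontin, had 19.2 and 23.3 TPM, and ANGPTL4, an inhibitor of LPL, had 34.4 TPM (SD 19.4) and 74.7 TPM (SD 52.7). PLD3, the nearest relative of PLD4, had 36.9 and 33.8 TPM. By the fit on TYROBP, 6 of these 24 were called positive against 24.1% of all genes. Without CON calf 2 it was 5 of 24 against 15.2%. With TREM2 the largest r of this list was that of ITGB1, an integrin chain, at -0.63 within groups (adjusted p = 0.966 by limma).

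The genes with the highest within-group r with TREM2 over 14 calves were GGT1, CRIP1, LURAP1L, GADD45G, TNFAIP8L3, PTGDS, MEMO1, SPP1, MOXD1 and ARL15. They had r from 0.65 for ARL15 to 0.80 for GGT1, which encodes a gamma-glutamyltransferase. The most negative were HMGN4 (r = -0.86), CARM1, PTGIS, ZKSCAN7 and TTL (r = -0.83). The adjusted p was 0.966 by limma for all of them. Without CON calves 3 and 7, r with TREM2 was 0.76 for GGT1 (rho = 0.84 over all calves), 0.80 for MEMO1 and 0.86 for MOXD1. For PTGDS it was 0.11 and for GADD45G 0.35, so that these rest on those calves.

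Most of the genes were represented by 1 main transcript. The single transcripts of LGALS3, CD9, FABP5 and LPL carried all of their TPM, and 1 of 2 GPNMB transcripts carried 97.2%. TREM2 was split between 3 models, of which NM_001079580 held 71.5% of the summed TPM and XM_024983466 held 27.6%. The share of the former ranged from 31.4% to 100% between calves. For SPP1, NM_174187 held 72.3% on average in control calves (SD 5.60) against 53.3% in supplemented calves (SD 26.7, n = 7 each), with a lowest value of 12.2% in 1 calf. For TYROBP the share of XM_005218906 was 80.4% in CON (SD 2.74) and 85.5% in DCLI (SD 4.75). PLD4 was spread over 7 models, the main one with 67.5%. The program that estimates such shares divides reads among similar transcripts, so shares of low genes are uncertain. With the most abundant transcript in place of the sum, the log2 fold change was -0.68 for TREM2 and -1.11 for SPP1.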

How the data were processed

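The authors deposited 1 table of TPM for 49721 RefSeq transcripts in 14 liver libraries, written to 2 decimals. Reads were filtered with SOAPnuke 1.5.6, per the labels' protocols. The submitters' processing notes name RSEM 1.3.1 and DESeq2 1.4.5. For the aligner and the genome build: not given in the sources used here. TPM fixes the library total, so depth is unknown and no counting interval can be given.

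TPM was summed per gene. The filter kept 11905 genes that reached 1 TPM in 7 or more libraries, analysed as log2(TPM + 1) with limma 3.58.1 in R 4.3.3 (trend, two-sided, Benjamini-Hochberg, threshold 0.05). Association within groups was tested by adding the log2 level of TREM2, or of another of the 10 genes, to the group term. References other than TREM2 and TYROBP, the pairs of genes and the relations to marker lists were chosen after seeing the data. Correlations used group-centred values and 100000 permutations within groups, two-sided. The limma steps were also run on simulated data, in which the errors of genes were independent of each other. Nothing on the calls in these calves is read from that run.

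The 10 genes and the gene lists were chosen with earlier results of these data known. Named are the 10 genes, the 10 most positive and 5 most negative with TREM2, and, from each pathway list, some of those ranked in the first 4 by unadjusted p, either between groups or with TREM2. Of 189 list entries 183 matched a gene. Symbols are those of the table, and all 10 had the same symbol in the RefSeq gene table of ARS-UCD2.0. No sequences were used here. The labels name no batch, and nothing says more of the calves than 1 library each. Figures were drawn with matplotlib 3.10.9.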

Additional observations from a re-analysis of the deposited data

How the results depend on the processing

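The median log2 fold change of the 10 genes stayed below 0 under each alternative run (lowest -0.98 with log2(TPM + 0.1), highest -0.40 with log2(TPM + 5)), as did those of 8 of the 9 genes lower in DCLI. LPL alone turned, without DCLI calf 1. Genes past the threshold between the groups numbered 0 to 12 with 1 calf left out (12 without CON calf 7) and 1 with the replicate block. Same-numbered calves correlated in their deviations from -0.18 to 0.45, above 0.1 in 4 of 7 pairs. Of 14 calves 5 correlated best with their own number, each having 7 candidates in the other group. With the replicate block the median SD left by the fit over the 10 genes was 0.41, against 0.49 without it. The labels do not describe the numbers as pairs, and they were not taken as such. Whether same-numbered calves share a structure was not tested.

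Genes associated within groups numbered 0 for TREM2 with every filter, scaling and calf left out. With another reference they numbered 2903 for TYROBP, 2056 for CD9, 1289 for PLD4, 29 for LGALS3 and 5 for CTSD. Positive calls with 1 calf left out ran from 1793 to 3223 for TYROBP, from 0 (without DCLI calf 2) to 3145 (without DCLI calf 6) for CD9, from 2 (without CON calf 2) to 1898 for PLD4 and from 0 (without CON calf 2) to 999 (without CON calf 3) for LGALS3, from 0 to 974 (without CON calf 7) for CTSD and from 0 to 39 (without DCLI calf 6) for GPNMB.

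Correlations near 0 with TREM2 changed sign. The r of PLD4 was -0.0292 with log2(TPM + 0.1), -0.0383 with quantile normalization and -0.108 with the replicate block. That of TYROBP was -0.0456 and -0.232 under the last 2. With the block GPNMB had -0.235 and LPL -0.136. CD9 had 0.260 with no group term and 0.0257 with the macrophage markers as covariate. With 1 calf left out r ran from -0.0405 to 0.295 for TYROBP, from -0.113 to 0.152 for PLD4, from -0.268 to 0.0458 for CD9 and from -0.197 to 0.361 for LPL. It ran from 0.482 to 0.746 for SPP1, from 0.385 to 0.767 for FABP5, from 0.290 to 0.635 for LGALS3 and from -0.641 to -0.377 for CTSD. The causes were not tested. With a filter on a mean of 5 TPM the group difference of TREM2 and both values of FABP5 could not be given, since these genes lie below it.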

Other observations

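Some of the 10 genes went with marker lists other than those of macrophages and T and NK cells among calves of the same group. LPL went with the 5 cholangiocyte markers that passed the filter (r = 0.80, rho = 0.65, permutation p of r = 0.00185, adjusted p = 0.0243 over 100 relations). That r was 0.81 in CON, 0.82 in DCLI and 0.59 without CON calf 7 and DCLI calf 1. LGALS3 went with the 6 B and plasma cell markers that passed the filter (r = 0.80, rho = 0.82, adjusted p = 0.00467). This r of LGALS3 was 0.79 without CON calves 2 and 3 and 0.66 without CON calf 2 alone. With the macrophage and the T and NK lists LGALS3 had r = 0.67 and 0.70 (adjusted permutation p = 0.161 and 0.148). FABP5 went with the 2 neutrophil markers that passed the filter, LTF and CXCR2 (r = 0.65, rho = 0.64, adjusted p = 0.0497). CXCR2 was low, averaging 1.24 TPM in CON and 0.90 TPM in DCLI. CD9 went with the 8 endothelial markers (r = 0.70, rho = 0.56, adjusted p = 0.0459). SPP1, which bile duct cells make, had r = 0.48 with the cholangiocyte markers (rho = 0.34, permutation p of r = 0.116, adjusted p = 0.35). Of the 100 relations 11 passed an adjusted p of 0.05, of which TREM2, SPP1, GPNMB and CTSD held 0.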
